A study of Mus musculus with 18 samples.

Results

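The genes described here encode the replication-dependent linker histone H1 and core histones H3 and H4 of the mouse. They were the rows of the brain count table whose mouse symbol was H1f1 to H1f6, H3c or H4c with a number, or whose older Hist name denoted an H1, H3 or H4 gene, with pseudogenes left out. This gave 31 of 27179 genes, of which 6 were H1, 12 were H3 and 13 were H4 genes. The gene H4f16 was found by its older name alone. A total of 30 genes passed the filter on low counts and were tested among 15863 genes. The gene left untested was H1f6, the linker histone of the testis, which stood between 0 and 0.503 CPM (counts scaled to the size of each library) in the 18 mice.

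Total RNA from half-brain samples of 18 wild-type C57BL/6J mice was sequenced with 1 library per mouse. The mice were 4 months old when dosing with the herbicide glyphosate began, and each was gavaged once a day for 14 days. The vehicle group held 5 mice (males G1 and G5, females G9, G15 and G18) that received the neutralised sodium hydroxide solution without glyphosate. The 125 mg/kg group held 5 mice (females G25 and G29, males G34, G40 and G45), the 250 mg/kg group 4 (female G49, males G64, G66 and G71) and the 500 mg/kg group 4 (females G4 and G79, males G87 and G90), each given glyphosate in that solution. All mice, controls included, were gavaged, were perfused with saline and were caged by sex and dose. The labels also gave each mouse a number of unstated meaning. The 250 mg/kg mice shared a number that no other mouse had, and wherever several dose groups shared a number, dose moved with sex.

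Total counts ranged from 3948096 to 11732885 per mouse, and the 31 histone genes took 0.0768% to 0.155% of them. The labelled sex matched the sex-linked genes in 18 of 18 mice. Brain markers were present throughout, with the summed level of 14 astrocyte genes between 8538 and 11728 CPM. The libraries of the 500 mg/kg mouse G4 and the vehicle mouse G9 stood apart. Their median correlations with the remaining libraries were 0.943 and 0.942, whereas the other mice had 0.959 to 0.9747. The dose regression and the comparisons of the 500 mg/kg mice are also given without them below. Library numbers in the labels rose group by group from vehicle to 500 mg/kg, except that G4 was numbered among the vehicle mice. Outside G4, library order and dose cannot be told apart.

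Replication-dependent histone genes supply the histones that package newly made DNA, and in dividing cells their mRNAs accumulate in S phase and are quickly lost when replication ends. H3 and H4 form the tetramer at the heart of the nucleosome, whereas H1 binds the linker DNA where it enters and leaves the particle. Unlike other mRNAs, these transcripts end in a short stem-loop, bound by the stem-loop binding protein SLBP, in place of a poly(A) tail. Most cells of the adult brain do not divide, and replication-independent variants are the known supply of histones in neurons. Because the libraries used ribosomal RNA depletion and not poly(A) selection, transcripts without a tail could be counted.

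All 31 genes had a single exon. In build GRCm38, 18 genes lay at chr13:23531044-23764412 and 8 at chr13:21717628-22041362. A further 4 lay at chr3:96238479-96269155, and H4f16 stood alone at chr6:136803993-136804431. The 13 H4 genes had 12 distinct coding sequences but encoded 1 protein of 103 residues, and their coding sequences were 85.3% to 100% identical in pairs. The 12 H3 genes encoded 2 proteins, shared by 8 and by 4 genes, that differed in 1 residue at position 97 counted from the initiator methionine. The 6 H1 genes encoded 6 different proteins. Reads from the near-identical copies may have been split or lost in counting. The share of 100-base transcript windows found in another gene too ran from 0% (H4f16 and H4c14 among others) to 100% (H3c13, H3c14 and H3c15), and was 41.5% for H4c1 and 20.1% for H4c6.

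The 3′ stem-loop was the feature most of the genes shared beyond the rule. A perfect stem of 6 base pairs around a loop of 4 bases, opening with GG, closing with CC and with T first in the loop, was searched for within 100 bases after the stop codon. It was found in 25 of 31 genes (80.6%) against 69 of 21901 protein-coding genes (0.315%) in the GENCODE M21 transcripts. In H1f1, H1f5, H3c10, H3c11, H3c13 and H4c12, whose transcript models run at most 48 bases past the stop codon, no match lay in the window. The stem-loops fell into 7 forms, and the examples below, in GRCm38 and with the 16 bases of the stem-loop in capitals, show the genes that passed the test between doses and the forms held by several genes. H4c1 (chr13:23760795-23760820, minus strand) and H4c6 (chr13:23551286-23551311, minus strand) are the genes that passed, H3c2 (chr13:23752815-23752840, plus strand) has the form shared by 8 genes, and H3c7 (chr13:23544927-23544952, plus strand), H4c2 (chr13:23757361-23757386, plus strand) and H4c9 (chr13:22040961-22040986, minus strand) represent the remaining forms with several genes.
H4c1: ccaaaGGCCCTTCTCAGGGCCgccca
H4c6: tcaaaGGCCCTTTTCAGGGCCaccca
H3c2: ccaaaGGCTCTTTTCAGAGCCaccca
H3c7: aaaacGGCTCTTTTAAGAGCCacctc
H4c2: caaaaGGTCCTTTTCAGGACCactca
H4c9: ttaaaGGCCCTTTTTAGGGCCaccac
The H4c6 form was shared by 7 genes, all of them H4. The H3c2 form joined 5 H3 genes with H1f2, H1f3 and H1f4. H4c1 had a form of its own.

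Promoter sequences from RefSeq (GRCm38) were held for 28 of the 31 genes, all but H3c1, H3c7 and H4c14. The 250 bases before each start were searched on both strands for TATAAA (the TATA box), CCAAT (the CCAAT box), AAACACA (a motif of H1 promoters) and GGTCC (the core of the H4 site known to be bound by HINFP). AAACACA was found in 5 of 6 H1 promoters, no H3 or H4 promoter, and 6.25% of all 32851 promoters. GGTCC was found in 11 of 12 H4 promoters, 4 of 10 H3 promoters and 39.8% of all promoters. CCAAT was found in 6 of 6 H1, 8 of 10 H3 and 3 of 12 H4 promoters and in 33.8% of all promoters, and TATAAA in 4, 4 and 6 of them and in 12.4% of all. The 150 bases before the start are shown for H4c1 (chr13:23761250-23761399, minus strand), the H4 gene without GGTCC, for H4c6 (chr13:23551669-23551818, minus strand) and H4c12 (chr13:21750554-21750703, minus strand), which hold it, and for H1f2 (chr13:23738657-23738806, plus strand), the most abundant H1 gene. Capitals mark these motifs on either strand.
H4c1: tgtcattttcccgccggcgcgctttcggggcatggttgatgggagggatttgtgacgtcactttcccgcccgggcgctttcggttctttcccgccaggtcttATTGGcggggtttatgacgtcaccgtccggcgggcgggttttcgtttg
H4c6: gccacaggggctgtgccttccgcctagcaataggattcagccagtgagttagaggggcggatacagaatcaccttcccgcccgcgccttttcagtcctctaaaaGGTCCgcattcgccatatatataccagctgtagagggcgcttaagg
H4c12: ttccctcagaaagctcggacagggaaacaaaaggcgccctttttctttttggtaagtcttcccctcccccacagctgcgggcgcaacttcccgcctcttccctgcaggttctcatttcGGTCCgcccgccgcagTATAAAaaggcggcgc
H1f2: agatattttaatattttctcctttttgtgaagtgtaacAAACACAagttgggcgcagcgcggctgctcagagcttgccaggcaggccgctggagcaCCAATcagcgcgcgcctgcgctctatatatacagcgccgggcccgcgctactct
These matches are descriptions of the letters in the window, and binding was not measured.

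Levels are given as CPM after TMM normalisation, and levels of different genes are compared per kilobase of gene span. H4c8 had the highest mean level at 271 CPM per kb, followed by H4c3 at 219.6, H4c4 at 213, H4c18 at 173, H4c14 at 161 and H4c17 at 141 CPM per kb. The first gene outside the H4 family was H1f2 at 128 CPM per kb, ahead of H1f4 at 94.8. Among the genes tested, H1f5 was lowest at 6.59 CPM per kb. H1f2 and H1f4 together made up most of the H1 signal, with 44.5% and 35.4% of summed H1 CPM, whereas H4c8 held 18.8% of the H4 sum and H3c6 held 16.9% of the H3 sum. The genes differ in how much sequence they share with other genes. Reads split or lost in counting may therefore have changed this ranking and these percentages.

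Summed by family, H3 and H4 transcripts had their lowest mean in the 500 mg/kg mice and their highest in the 125 mg/kg mice. The H4 sum was 660.5 ± 128 CPM in vehicle mice (SD, n = 5) and 784 ± 71.8 in 125 mg/kg mice (n = 5). It was 529.99 ± 125 in 250 mg/kg mice (n = 4) and 496 ± 82.3 in 500 mg/kg mice (n = 4). The H3 sum was 325 ± 53.2, 412 ± 72.2, 287 ± 56.2 and 254 ± 35.6 CPM in the same order. Each of the 500 mg/kg mice lay below each of the 125 mg/kg mice in both sums, for H4 at 379.6 to 574 against 695 to 881 CPM and for H3 at 206 to 291 against 325 to 497 CPM. The vehicle and 250 mg/kg mice overlapped both. The H1 sum showed no such separation, at 224 ± 50.3, 223 ± 22.1, 199.5 ± 59.5 and 185 ± 25.9 CPM, and the groups overlapped. In RNA from mixed tissue, fewer cells of a type and less RNA per cell cannot be told apart.

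**Figure D1:**
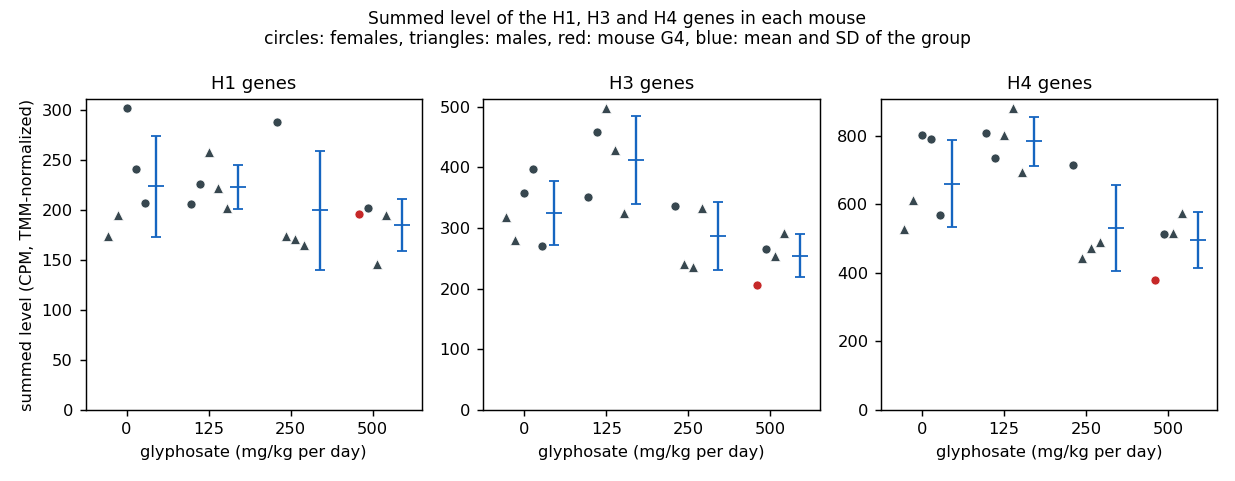
Summed TMM-normalised CPM of the H1, H3 and H4 genes in each of the 18 mice (vertical axes, each starting at 0) against glyphosate dose in mg/kg per day; circles are females, triangles males, the red point mouse G4, and blue marks the group mean and SD. In the H3 and H4 panels all 500 mg/kg mice sit below all 125 mg/kg mice, whereas the H1 groups overlap.

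Earlier results of these data had shown the histone genes high at 125 mg/kg and low at 500 mg/kg. For this reason the highest dose was set against the lowest dose. The direction, p-values, calls and group separation in this comparison are therefore not independent of its choice. H4c1 and H4c6 fell in the 500 mg/kg mice relative to the 125 mg/kg mice, and the other 28 genes did not pass the test, although each had a lower fitted level at 500 mg/kg. Across all genes tested 0.0315% were called. The difference had an unadjusted p under 0.05 and was lower for 27 of 30 genes, 2 of 5 H1, 12 of 12 H3 and 13 of 13 H4, against 8.4% of all genes. The median difference was −0.67 on the log2 scale for the 30 genes (−0.37 for H1, −0.77 for H3 and −0.71 for H4) and 0.03 for all genes. DESeq2 called 14 of the 30 (5 H3 and 9 H4 genes), against 3.61% of all genes, and limma-voom called H4c1 and H4c6. With the fit restricted to the mice of these 2 groups, edgeR called no histone gene.

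The values of each mouse are given in the order G1, G5, G9, G15 and G18 for vehicle, G25, G29, G34, G40 and G45 for 125 mg/kg, G49, G64, G66 and G71 for 250 mg/kg, and G4, G79, G87 and G90 for 500 mg/kg. H4c1 lies in the larger chromosome 13 cluster and encodes the common H4 protein. H4c1 stood at 28.04, 30.4, 31.8, 34.2 and 28.3 CPM in the vehicle mice and at 37.8, 41.2, 40.97, 43.1 and 39.9 CPM in the 125 mg/kg mice. The 250 mg/kg mice had 23.9, 22.2, 19.9 and 23.5 CPM and the 500 mg/kg mice 15.7, 20.1, 22.6 and 22.6 CPM. All 125 mg/kg mice lay above all other mice, and all 250 and 500 mg/kg mice lay below all vehicle mice. Between 500 and 125 mg/kg H4c1 differed by −1.002 on the log2 scale (SE 0.12, 95% interval −1.25 to −0.76, edgeR quasi-likelihood test with Benjamini-Hochberg adjusted p = 0.00182), a fold of 0.499. Across the 4 groups with no order assumed, H4c1 also passed (adjusted p = 0.00371, edgeR).

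H4c6, in the same cluster and with the same protein, had the larger difference of these called genes. The level of H4c6 was 17.7, 17.8, 20.5, 23.5 and 15.6 CPM in vehicle mice, and the 125 mg/kg mice had 27.4, 30.7, 27.8, 28.1 and 22.2 CPM. It was 13.3, 16.04, 13.8 and 18.7 CPM in the 250 mg/kg mice and 8.995, 12.1, 11.96 and 15.3 CPM in the 500 mg/kg mice. Each 500 mg/kg mouse lay below each vehicle and each 125 mg/kg mouse, while vehicle mouse G15 at 23.5 CPM reached the range of the 125 mg/kg mice. The difference between 500 and 125 mg/kg was −1.17 (SE 0.17, 95% interval −1.52 to −0.82, edgeR adjusted p = 0.00952), a fold of 0.444, and the test across the 4 groups gave an adjusted p of 0.0271. That last call was lost in 10 of the 18 fits that each left out 1 mouse (G5, G25, G29, G34, G40, G64, G66, G4, G79 or G87), in which the edgeR adjusted p ranged from 0.0251 to 0.129, whereas H4c1 kept it in all 18 (0.00303 to 0.0260). Without mouse G4 the difference in H4c6 was −1.05 with an adjusted p of 0.0546, and without mouse G87 −1.17 with 0.0622, whereas H4c1 passed whichever mouse was left out (adjusted p 0.00238 to 0.0132). Over all alternatives run, the adjusted p of this difference ranged from 3.72e-12 to 0.0521 for H4c1 and from 2.75e-07 to 0.0879 for H4c6, with the highest values in the fit of these 2 groups alone.

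The other H4 genes had lower fitted levels at 500 than at 125 mg/kg without passing the edgeR test. H4c12 lies in the smaller chromosome 13 cluster. For H4c12 the vehicle mice had 26.8, 27.9, 36.6, 38.6 and 29.5 CPM and the 125 mg/kg mice 37.1, 32.5, 32.6, 36.7 and 30.1 CPM. Values were 28.4, 23.9, 22.99 and 19.97 CPM in the 250 mg/kg mice, while the 500 mg/kg mice had 10.9, 19.9, 20.2 and 24.6 CPM. The 500 mg/kg mice lay below all vehicle and 125 mg/kg mice, and G4 was the lowest of the 18 mice. The difference between 500 and 125 mg/kg was −0.84 (SE 0.19, edgeR adjusted p = 0.0659), and without G4 it was −0.63.

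H4c8 and H4c4 had the highest CPM of the family. Vehicle mice had 97.2, 106, 156, 148 and 99.5 CPM of H4c8, and mice given 125 mg/kg had 156, 143, 144, 159 and 148 CPM. Mice given 250 mg/kg had 141, 72.5, 81.2 and 95.9 CPM, and those given 500 mg/kg had 71.3, 96.2, 103 and 107 CPM. The 125 mg/kg mice sat together at the top and the 500 mg/kg mice below them, with the vehicle mice spread over both ranges. H4c4 stood at 75.6, 89.3, 108, 101 and 81.6 CPM in the vehicle mice and at 119.7, 96.9, 97.7, 121 and 93.7 CPM in the 125 mg/kg mice. The 250 mg/kg mice had 65.9, 72.6, 71.6 and 67.1 CPM and the 500 mg/kg mice 64.1, 57.8, 75.4 and 86.00 CPM. The 500 mg/kg mice again lay below the 125 mg/kg mice, but G90 overlapped the vehicle mice. The differences between 500 and 125 mg/kg were −0.68 (SE 0.18, edgeR adjusted p = 0.0937) for H4c8 and −0.58 (SE 0.14, adjusted p = 0.0755) for H4c4. For the remaining 8 H4 genes they ran from −0.89 (H4c17) to −0.42 (H4c3).

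**Figure D2:**
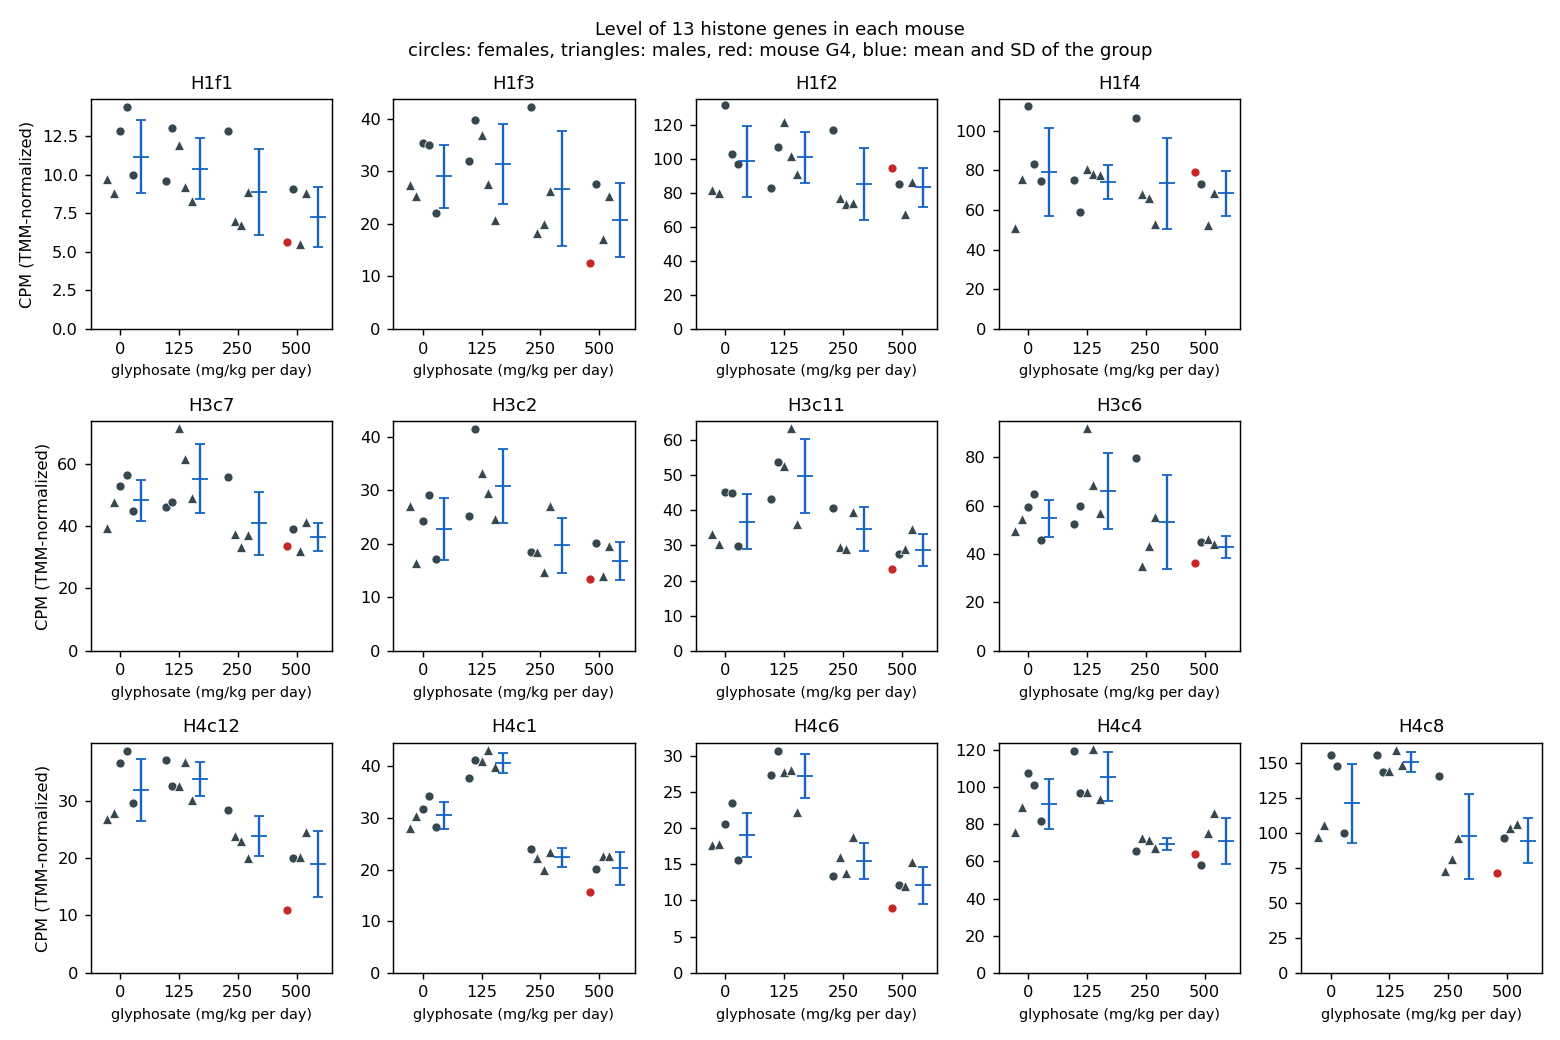
Level in TMM-normalised CPM (vertical axes, each starting at 0) of 13 histone genes in each mouse against glyphosate dose in mg/kg per day, with H1 genes in the top row, H3 in the middle and H4 in the bottom row; circles are females, triangles males, red is mouse G4, and blue marks mean and SD. H4c1 and H4c6 show the 125 mg/kg mice above the 500 mg/kg mice with a gap, at 37.8 to 43.1 against 15.7 to 22.6 CPM for H4c1.

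The 12 H3 genes differed between 500 and 125 mg/kg by −0.49 (H3c13) to −1.29 (H3c3, 2.76 to 5.20 against 4.14 to 16.1 CPM), and none passed the edgeR test. H3c11 and H3c2 had the lowest adjusted p-values among those named in full. The level of H3c11 was 33.3, 30.5, 45.3, 44.96 and 29.8 CPM in vehicle mice, and the 125 mg/kg mice had 43.2, 53.6, 52.5, 63.3 and 36.2 CPM. It was 40.7, 29.4, 29.02 and 39.4 CPM in the 250 mg/kg mice and 23.4, 27.5, 29.04 and 34.5 CPM in the 500 mg/kg mice. All 500 mg/kg mice lay below all 125 mg/kg mice, with 34.5 against 36.2 CPM where they came closest. The difference in H3c11 was −0.80 (SE 0.19, edgeR adjusted p = 0.0736). For H3c2 the vehicle mice had 27.1, 16.4, 24.3, 29.1 and 17.1 CPM and the 125 mg/kg mice 25.1, 41.4, 33.3, 29.5 and 24.6 CPM. Values were 18.5, 18.4, 14.8 and 27.00 CPM in the 250 mg/kg mice, while the 500 mg/kg mice had 13.5, 20.1, 14.1 and 19.6 CPM. The 500 mg/kg mice lay below the 125 mg/kg mice and overlapped the vehicle mice. The difference in H3c2 was −0.88 (SE 0.22, edgeR adjusted p = 0.0862).

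H3c6 and H3c7 were the H3 genes with the highest CPM. Vehicle mice had 49.4, 54.3, 59.3, 64.8 and 45.7 CPM of H3c6, and mice given 125 mg/kg had 52.4, 60.01, 91.9, 68.7 and 56.8 CPM. Mice given 250 mg/kg had 79.7, 34.96, 43.2 and 55.4 CPM, and those given 500 mg/kg had 36.4, 45.1, 46.4 and 43.96 CPM. In H3c6 the female G49 lay above the other 250 mg/kg mice and inside the range of the 125 mg/kg mice. H3c7 stood at 39.4, 47.8, 52.9, 56.3 and 44.8 CPM in the vehicle mice and at 45.9, 47.6, 71.5, 61.6 and 49.1 CPM in the 125 mg/kg mice. The 250 mg/kg mice had 55.7, 37.5, 33.3 and 36.99 CPM and the 500 mg/kg mice 33.5, 39.1, 32.1 and 41.3 CPM. For both genes the 500 mg/kg mice lay below the 125 mg/kg mice, and the differences were −0.62 (SE 0.21, edgeR adjusted p = 0.146) for H3c6 and −0.61 (SE 0.17, adjusted p = 0.101) for H3c7. The 4 genes with the rarer H3 protein, H3c1, H3c8, H3c10 and H3c11, had a median difference of −0.80 and the 8 with the common one −0.62.

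The linker histone genes had the smallest median difference of these families, and no H1 gene separated the 500 mg/kg from the 125 mg/kg mice. The level of H1f2 was 81.6, 79.9, 132, 103 and 97.5 CPM in vehicle mice, and the 125 mg/kg mice had 83.4, 107, 122, 102 and 91.1 CPM. It was 117, 77.3, 73.5 and 74.3 CPM in the 250 mg/kg mice and 94.6, 85.1, 67.5 and 86.9 CPM in the 500 mg/kg mice. The groups overlapped, and G49 stood above the other 250 mg/kg mice. The difference between 500 and 125 mg/kg was −0.32 (SE 0.15, edgeR adjusted p = 0.287) for H1f2. For H1f4 the vehicle mice had 50.8, 75.4, 113, 83.4 and 74.5 CPM and the 125 mg/kg mice 75.2, 58.9, 80.7, 78.1 and 77.6 CPM. Values were 107, 68.2, 66.03 and 53.02 CPM in the 250 mg/kg mice, while the 500 mg/kg mice had 79.2, 73.1, 52.7 and 68.7 CPM. The 500 mg/kg mice lay inside the vehicle range, and the difference was −0.17 (SE 0.19, 95% interval −0.57 to 0.22, adjusted p = 0.649).

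H1f1 and H1f3 had larger differences than the more abundant linker genes. Vehicle mice had 9.70, 8.84, 12.9, 14.4 and 9.99 CPM of H1f1, and mice given 125 mg/kg had 9.56, 13.01, 11.9, 9.21 and 8.31 CPM. Mice given 250 mg/kg had 12.8, 6.99, 6.76 and 8.86 CPM, and those given 500 mg/kg had 5.65, 9.05, 5.52 and 8.79 CPM. Mice G79 and G90 overlapped the 125 mg/kg mice, while G4 and G87 were the lowest of all. H1f3 stood at 27.4, 25.2, 35.4, 35.04 and 21.97 CPM in the vehicle mice and at 31.9, 39.8, 36.96, 27.6 and 20.7 CPM in the 125 mg/kg mice. The 250 mg/kg mice had 42.2, 18.2, 19.9 and 26.3 CPM and the 500 mg/kg mice 12.6, 27.7, 17.1 and 25.4 CPM. Here G4 was the lowest and G49 the highest mouse. The differences were −0.54 (SE 0.21, edgeR adjusted p = 0.190) for H1f1 and −0.61 (SE 0.25, adjusted p = 0.213, and −0.40 without G4) for H1f3, and for the low-abundance H1f5 −0.37 (SE 0.34, adjusted p = 0.580).

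**Figure D3:**
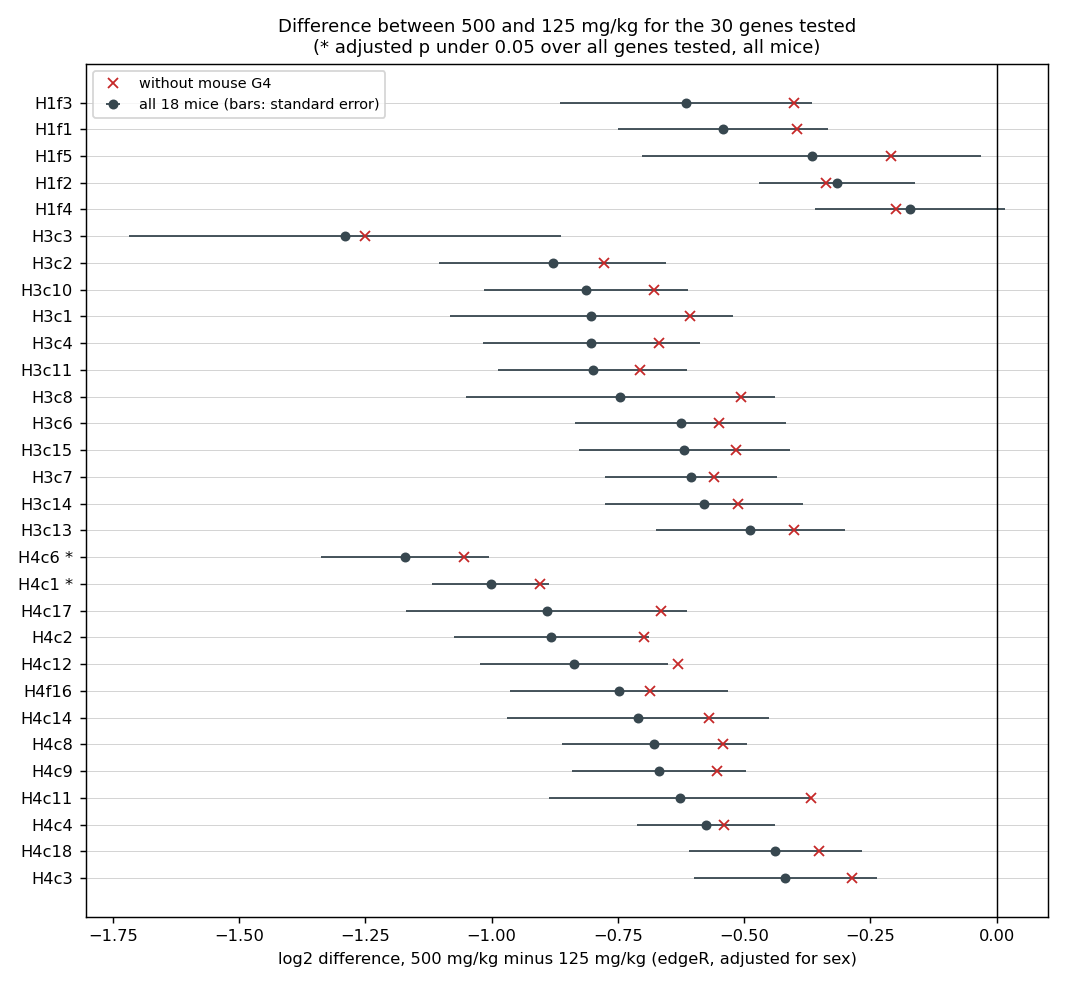
Log2 difference of each of the 30 tested genes between 500 and 125 mg/kg (horizontal axis, 500 minus 125, edgeR adjusted for sex), grouped by family; grey points and bars are the estimate and standard error with all 18 mice, red crosses the estimate without mouse G4, and asterisks mark adjusted p under 0.05 over all genes tested. All 30 estimates lie below 0 with and without G4, and H4c1 and H4c6 carry the asterisk.

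The separation of these groups was not limited to the called genes. Every 500 mg/kg mouse lay below every 125 mg/kg mouse for 15 of 30 genes, 6 H3 and 9 H4, against 3.06% of all genes. By position, the median difference between 500 and 125 mg/kg was −0.73 for 8 genes and −0.68 for 17 genes of the chromosome 13 clusters, −0.60 for the 4 chromosome 3 genes and −0.75 for H4f16. It was −0.67 for the 24 genes with a stem-loop match and −0.67 for the 6 without. For the 11 genes with at least 50% of their windows shared with another gene the median was −0.80, for the 14 with a smaller share −0.65 and for the 5 with none −0.58. Family was mixed with sharing, as H1f1 and H1f5 had none shared and no H1 gene reached 50%. The H4 genes with none shared, H4c14, H4c4 and H4f16, were at −0.71, −0.58 and −0.75.

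To address whether the genes followed dose as the study's regression asked, a straight line in dose was fitted with sex as a covariate, and slopes are given as log2 change from 0 to 500 mg/kg. No histone gene was called by edgeR, while 0.29% of all genes were. All 30 slopes were negative, from −0.91 (H4c6) to −0.18 (H1f4), with a median of −0.54 against 0.01 for all genes. A negative slope with unadjusted p under 0.05 was found for 16 genes, 1 H1, 5 H3 and 10 H4, against 5.28% of all genes. DESeq2, the tool of the study, called H4c12, H4c1, H4c9 and H4c6 (4 genes, against 1.53% of all genes), and limma-voom called 0.

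H4c12 had the smallest p among the slopes at −0.84 (SE 0.20, edgeR adjusted p = 0.0710, DESeq2 0.00841). H4c1 followed with −0.83 (SE 0.21, adjusted p = 0.0939, DESeq2 0.0227), and H4c6 had −0.91 (SE 0.26, adjusted p = 0.142, DESeq2 0.0498). Over all alternatives run, the adjusted p of the slope ranged from 0.00841 to 0.9999 for H4c12, from 0.0227 to 0.9999 for H4c1 and from 0.0498 to 0.9999 for H4c6. In the H3 family H3c7 came first with −0.51 (SE 0.18, edgeR adjusted p = 0.238). In the H1 family it was H1f1 with −0.60 (SE 0.20, adjusted p = 0.202), against −0.26 (SE 0.15) for H1f2, −0.51 (SE 0.25) for H1f3 and −0.18 (SE 0.17) for H1f4. The slope of H1f3 was −0.26 without G4, and that of H1f4 was −0.087 without G9 and −0.11 without G87.

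Fitted levels at 125 mg/kg were mostly above vehicle, on the other side of the vehicle level from the higher doses. At 125 mg/kg 28 of 30 genes had a positive difference from vehicle, with a median of 0.27, and 9 genes (5 H3 and 4 H4) were higher with unadjusted p under 0.05 against 4.66% of all genes. Without the vehicle mouse G5 or G18, 2 genes had such a p, against 3.7% and 3.58% of all genes. Without G9 9 had it, and the share of all genes in that fit is not given here. None was called by edgeR, DESeq2 or limma-voom, and edgeR called 0% of all genes. The gene with the smallest p was H4c1 at 0.40 (SE 0.11, adjusted p = 0.323), followed by H4c6 at 0.51 (SE 0.15, adjusted p = 0.326). Every vehicle mouse lay below every 125 mg/kg mouse for H4c1 alone of the 30, against 1.1% of all genes. When departure from the straight line was tested, 15 genes (8 H3 and 7 H4) had unadjusted p under 0.05 against 11.7% of all genes. None was called, with 0.0063% of all genes called. Without G29 or G34 9 genes had such a p, and the shares of all genes in those fits are not given here. The smallest adjusted p was 0.0695, for H4c1, and DESeq2 called H4c1 and H4c6, against 0.983% of all genes.

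At 250 mg/kg 29 of 30 genes had a negative difference from vehicle, with a median of −0.23. Of these, 4, all H4, had unadjusted p under 0.05 against 1.56% of all genes, and none was called by edgeR, DESeq2 or limma-voom (edgeR called 0% of all genes). Without the female G49 the median was −0.37 and 9 genes had unadjusted p under 0.05 against 2.09% of all genes, and without G66 the median was −0.14 with 24 genes negative. Without G9 26 were negative with a median of −0.20. At 500 mg/kg all 30 differences from vehicle were negative with a median of −0.36, and 11 genes (1 H1, 1 H3 and 9 H4) had unadjusted p under 0.05 against 4.07% of all genes. No histone gene was called by edgeR, which called 0.0189% of all genes, or by limma-voom, whereas DESeq2 called H4c1, H4c12 and H4c6 against 1.08% of all genes. The difference was −0.60 (SE 0.12, edgeR adjusted p = 0.0878) for H4c1, −0.74 (SE 0.19, adjusted p = 0.160) for H4c12 and −0.66 (SE 0.17, adjusted p = 0.158) for H4c6. These differences rested in part on G4. Without it 27 of 30 were negative, H1f5, H3c1 and H4c3 were at 0.045, 0.012 and 0.059, the median was −0.23, and 4 genes (H4c1, H4c6, H4c9 and H4c12, with no H1 or H3 gene) had unadjusted p under 0.05 against 2.78% of all genes. Without G9 29 were negative with a median of −0.34 and 7 such genes against 6.41%, and without the vehicle mouse G15 all 30 were negative with 6 such genes against 3.06%. Without both G4 and G9 the median was −0.21, 26 were negative and 3 genes (H4c1, H4c6 and H4c12) had unadjusted p under 0.05 against 4.4% of all genes. No histone gene was called by edgeR in any of these fits. Each 500 mg/kg mouse lay below each vehicle mouse for 5 genes (H4c1, H4c6, H4c9, H4c12 and H4f16), against 0.933% of all genes. These comparisons share the vehicle mice, and the contrasts with the 500 mg/kg group share its mice, so they are not independent of each other.

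**Figure D4:**
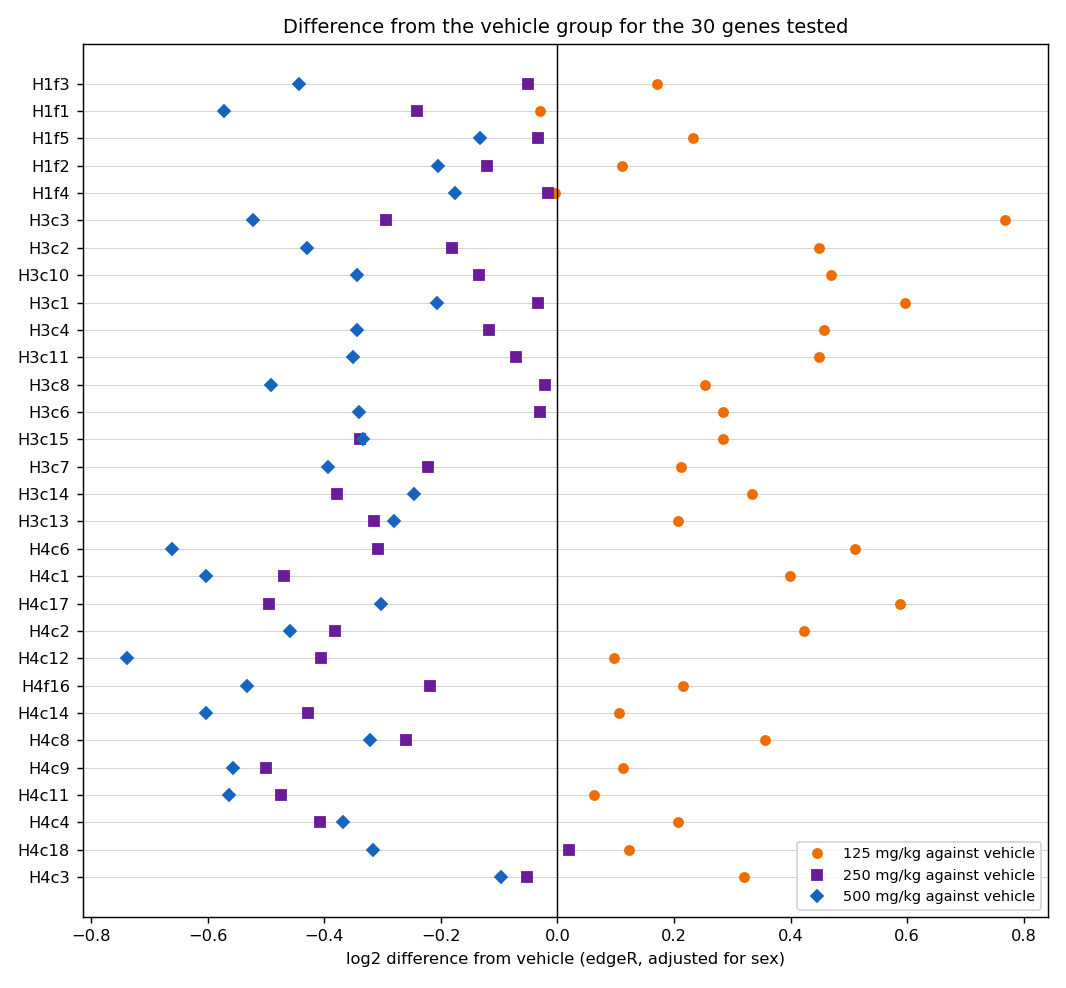
Log2 difference from vehicle (horizontal axis, edgeR adjusted for sex) of each of the 30 tested genes at 125 mg/kg (orange circles), 250 mg/kg (purple squares) and 500 mg/kg (blue diamonds). At 125 mg/kg 28 genes lie right of 0, at 250 mg/kg 29 lie left of it, and at 500 mg/kg all 30 do with all 18 mice, and 27 without mouse G4.

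When the 4 groups were compared with no assumed order, edgeR called H4c1 and H4c6 and 0.0441% of all genes. An unadjusted p under 0.05 was found for 20 genes, 10 H3 and 10 H4, against 15% of all genes, and DESeq2 called 11 against 3.4%. Sex was tested as a term of the dose regression. Neither sex itself nor the difference in slope between the sexes was called for any histone gene by edgeR, DESeq2 or limma-voom, with 0.0441% and 0% of all genes called by edgeR. For sex 4 of 30 genes (13.3%) had unadjusted p under 0.05 (H1f1, H1f2, H1f4 and H4c9, all lower in males), near the 10.1% of all genes. The count was 7 without G4 and 1 without G9 or G49, and the shares of all genes in those fits are not given here. For the slope difference 0 genes had such a p by edgeR and 1 by limma-voom, against 1.65% of all genes by edgeR. All 5 tested H1 genes had a lower fitted level in males, with a median log2 difference of −0.29, and 20 of 30 genes in all did.

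Single mice differed in position within their groups. Relative to the vehicle mean, the median log2 level of the 30 genes was −0.76 in G4, −0.32 in G79, −0.53 in G87 and −0.21 in G90 at 500 mg/kg. At 250 mg/kg it was 0.06 in the female G49 and −0.42, −0.50 and −0.28 in the males G64, G66 and G71. At 125 mg/kg it was 0.16, 0.33, 0.36, 0.34 and −0.01. The vehicle mice themselves ran from −0.24 (G18) to 0.27 (G15), and G18, with all 30 genes below the vehicle mean, lay below the 500 mg/kg mouse G90. G4 was the lowest of the 18 mice for 15 genes.

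Without G4 all 30 differences between 500 and 125 mg/kg stayed negative, 20 had unadjusted p under 0.05 against 6.77% of all genes lower, the median was −0.55 and only H4c1 of the 30 was called (−0.90, edgeR adjusted p = 0.00490). Without G4 the median slope was −0.38 and 8 genes had unadjusted p under 0.05 against 3.52% of all genes. Without G9 6 histone genes were called between 500 and 125 mg/kg. The share of all genes called in that fit is not given here. In it 28 histone genes had unadjusted p under 0.05 against 9.67%. Without G9 the median slope was −0.54 with 16 such genes against 8.34%. Without both, the median difference between 500 and 125 mg/kg was −0.55, 21 genes had unadjusted p under 0.05 against 8.28%, and H4c1 and H4c6 were called, and 29 of 30 slopes were negative with a median of −0.40 and 7 unadjusted p-values under 0.05 against 6.24%. With the number from the mouse label as a block, the median slope was −0.37, 28 slopes were negative and 4 had unadjusted p under 0.05 against 1.37% of all genes. Dose varied within a number only where sex varied with it, so this block cannot serve as a check of the slopes. In males alone the median slope was −0.40 and in females alone −0.71, negative for all 30 genes in each. Without the 500 mg/kg mice 22 slopes were negative and 0 had unadjusted p under 0.05 against 1.13% of all genes.

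Core histones H2A and H2B complete the nucleosome, and most of their genes share the clusters and the stem-loop of the genes above. Of 36 such genes 33 were tested. All 33 had a negative difference between 500 and 125 mg/kg, with a median of −0.87, 26 had unadjusted p under 0.05 against 8.4% of all genes, and H2ac22 was called (−1.67, edgeR adjusted p = 0.0165). Without G4 25 had unadjusted p under 0.05 against 6.77% and none was called (H2ac22 −1.65, edgeR adjusted p = 0.0933), whereas 11 were called without G9. The share of all genes called without G9 is not given here. H2ac22 averaged 5.86 ± 1.28 CPM at 125 mg/kg (n = 5) and 1.83 ± 0.248 CPM at 500 mg/kg (n = 4). The difference for H2bc15 was −1.44 (adjusted p = 0.0537). In the dose regression all 33 slopes were negative with a median of −0.64, 18 had unadjusted p under 0.05 against 5.28% of all genes (9 without G4, against 3.52%), and none was called.

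Genes for histones that are also made outside S phase were compared next. Of 14 replication-independent histone genes 11 were tested, the median difference between 500 and 125 mg/kg was −0.11, and none was called in it or in the dose regression. The variants H2az1, H2az2 and the linker histone of non-dividing cells H1f0 had slopes of −0.57 (SE 0.25), −0.21 (SE 0.12) and −0.19 (SE 0.14), with edgeR adjusted p-values of 0.338, 0.443 and 0.579. H1f0 averaged 140 ± 25.5 CPM in vehicle mice and 121 ± 20.8 CPM at 500 mg/kg.

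Genes acting on histone transcripts or proteins were compared as lists. Of all genes tested, 9.89% were higher and 8.4% lower between 500 and 125 mg/kg at unadjusted p under 0.05 (edgeR). The processing list holds SLBP and the U7 machinery that cuts the transcript after the stem-loop, and 18 of its 20 genes were tested, with a median of 0.09 between 500 and 125 mg/kg, 3 genes higher and 2 lower at unadjusted p under 0.05. Slbp had a difference of 0.10 (unadjusted p = 0.636), and the U7 protein gene Lsm11 a slope of 0.47 (SE 0.16, edgeR adjusted p = 0.229). Of the 16 transcription genes all were tested, with a median of −0.04, 1 higher and 2 lower. Among them the difference was 0.19 for Npat, the scaffold of histone gene transcription, −0.14 for the H4 regulator Hinfp and −0.79 for the S-phase regulator E2f1 (edgeR adjusted p = 0.159). The decay list had 19 of 20 genes tested, a median of 0.05, 2 higher and 0 lower. Its decapping gene Dcp2 had a slope of 0.41 (SE 0.12, edgeR adjusted p = 0.165). The H3-H4 chaperone list had 29 of 30 genes tested, a median of −0.03, 1 higher and 2 lower. No gene of these 4 lists was called in either test.

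Genes of the cell cycle were near the limit of detection in part. Of 27 S-phase genes 21 were tested, with a median of 0.01 between 500 and 125 mg/kg. At unadjusted p under 0.05, 1 was higher and 1 lower, against 9.89% and 8.4% of all genes. The sliding clamp gene Pcna had a difference of −0.17. Of 24 genes of G2 and mitosis 13 averaged under 1 CPM and 12 were tested, with a median of −0.29 and none at unadjusted p under 0.05.

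**Figure D5:**
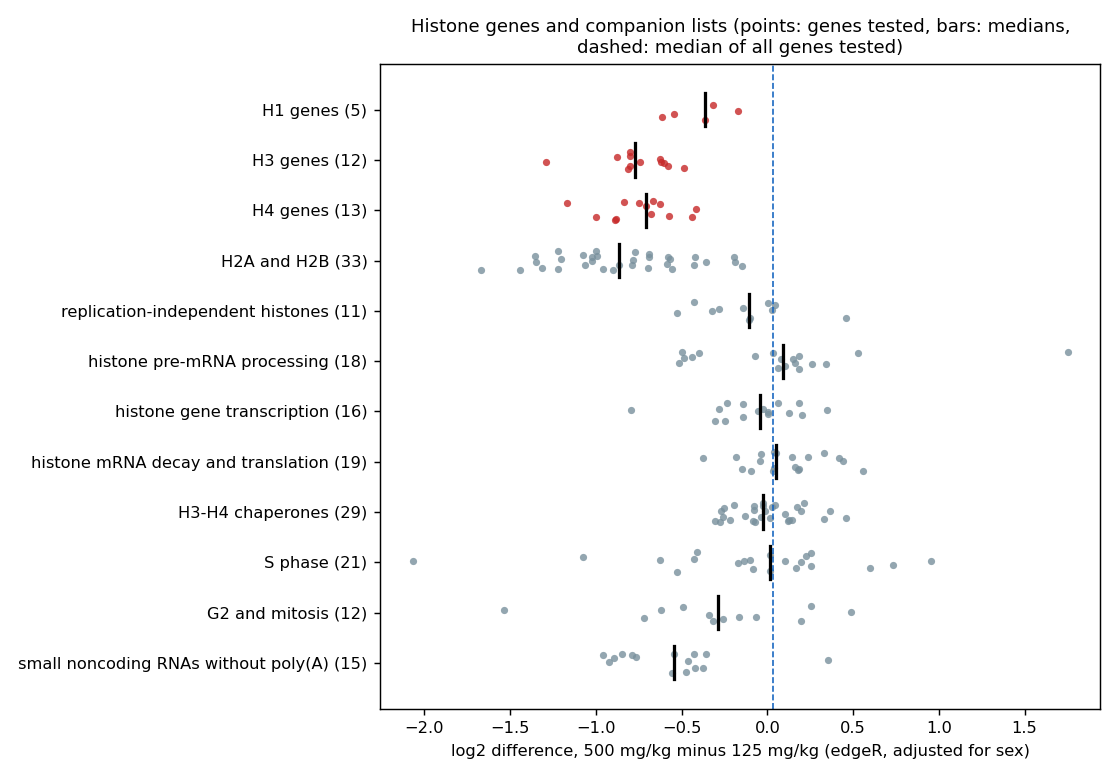
Log2 difference between 500 and 125 mg/kg (horizontal axis, edgeR adjusted for sex) of every tested gene in the H1, H3 and H4 families (red points) and in companion lists (grey points), with the number tested in brackets, bars at the medians and a dashed line at the median of all genes tested. The H3, H4 and H2A and H2B medians (−0.77, −0.71 and −0.87) lie left of those of the processing, transcription, decay and chaperone lists (0.09, −0.04, 0.05 and −0.03). So do the medians of the small noncoding RNAs (−0.55), H1 genes (−0.37), G2 and mitosis genes (−0.29) and replication-independent histones (−0.11). The S-phase median is 0.01.

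Other transcripts moved with the groups as well. Among 17 small noncoding RNAs that lack a poly(A) tail, 15 were tested, and Rmrp and Snora74a fell with dose (slopes −0.87 and −1.22, edgeR adjusted p = 0.0361 for each, and 0.225 and 0.128 without G4), with 14 of 15 negative between 500 and 125 mg/kg and a median of −0.55. Immediate early genes, which neurons switch on within minutes of activity, had a median shift close in size to that of the histone genes. Of 30 tested, 27 had a negative difference between 500 and 125 mg/kg with a median of −0.70, 14 were lower at unadjusted p under 0.05 against 8.4% of all genes, and none was called. In the dose regression Btg2, Dusp1 and Ier2 fell (slopes −1.86, −0.99 and −1.47, edgeR adjusted p = 0.0150, 0.0361 and 0.0361), and without G4 these slopes were −1.76, −0.94 and −1.27 and none was called. Their summed level ranged over 1365 to 3332 CPM in vehicle mice, 1471 to 3928 CPM in 125 mg/kg mice, 1604 to 2978 CPM in 250 mg/kg mice and 898 to 2133 CPM in 500 mg/kg mice.

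Markers of brain regions and cell types moved with the groups too. Of 14 midbrain dopamine neuron genes 11 were tested, and the dopamine transporter Slc6a3, the dopamine-synthesis enzyme Ddc and the nicotinic receptor subunit Chrna6 rose with dose (slopes 6.30, 2.57 and 2.93, edgeR adjusted p = 0.000729, 0.0341 and 0.0427). Without G4 only Slc6a3 of these was called (5.75, edgeR adjusted p = 0.00669). Slc6a3 averaged 0.294 ± 0.298 CPM in vehicle mice and 30.5 ± 12.6 CPM in 500 mg/kg mice, and the summed level of the list ranged over 75.3 to 263, 87.05 to 178, 129.6 to 197 and 202 to 556 CPM from vehicle to 500 mg/kg. Between 500 and 125 mg/kg 9 of the 11 were higher at unadjusted p under 0.05 against 9.89% of all genes, with a median of 1.87. Of 14 hypothalamus genes 11 were tested, Irs4 rose with dose (slope 3.22, edgeR adjusted p = 0.0361, and 0.265 without G4), and all 11 were higher at 500 than at 125 mg/kg with a median of 2.09. The summed level of that list ranged over 8.46 to 19.7, 9.33 to 72.6, 14.6 to 124 and 22.04 to 156 CPM in the same order. The summed level of 12 forebrain excitatory neuron genes ranged over 554 to 4828 CPM in vehicle mice, 2376 to 5635 CPM in 125 mg/kg mice, 1751 to 4346 CPM in 250 mg/kg mice and 722 to 2745 CPM in 500 mg/kg mice. For 10 hindbrain and spinal cord genes it ranged in the same order over 3.23 to 228, 0.836 to 25.1, 6.63 to 71.7 and 30.7 to 324 CPM, and for 15 oligodendrocyte genes 4334 to 7728, 4256 to 10230.2, 4861 to 7537 and 6260 to 17579 CPM. Between 500 and 125 mg/kg 8 of the 12 forebrain genes were lower at unadjusted p under 0.05, against 8.4% of all genes. At the same threshold 7 hindbrain and 5 oligodendrocyte genes were higher, against 9.89% of all genes, and none of these genes was called. Other lists were also above vehicle at 125 mg/kg and lower at 500 than at 125 mg/kg. All 14 microglia genes were above vehicle at 125 mg/kg (median 0.27) and lower at 500 than at 125 mg/kg (−0.24). So were all 12 choroid plexus genes (0.80 and −1.42) and 11 of 12 forebrain genes (0.44 and −1.41). At 500 mg/kg against vehicle the microglia median was −0.005, with 7 genes negative and 7 positive. For the choroid plexus and forebrain genes it was −0.52 and −0.88. All 13 endothelium genes were below vehicle at 125 mg/kg (−0.34), and 10 were higher at 500 than at 125 mg/kg. No gene of these lists was called in any of these comparisons. None of the genes in these lists was at 0 in every mouse. The part of these transcripts, and of the tissue they mark, in the histone differences was not tested.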

How the data were processed

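RNA was measured in half-brain samples of 18 mice (14 daily gavages). Per the labels, 250 ng of total RNA was used for stranded, ribosomal RNA-depleted libraries sequenced as 100 bp pairs, and the submitters' processing notes name STAR 2.7.5b, GRCm38, featureCounts, MultiQC 1.12 and DESeq2 1.34.0. The deposited table holds raw gene counts made by the authors, keyed by NCBI gene ID, and 25275 of 27179 IDs matched RefSeq symbols. How the authors treated reads that map to several genes is not given in the sources used here, which bears on near-identical histone copies.

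The 31 genes and all lists were chosen with earlier results of these data known. The counts were tested with edgeR 4.0.16 in R 4.3.3 (TMM, filterByExpr with a minimum count of 10, quasi-likelihood F test, dose divided by 500 or the 4 dose groups, with sex), adjusted by Benjamini-Hochberg over 15863 genes at 0.05. The common biological coefficient of variation was 25.8%. Intervals are at 95%. DESeq2 1.42.0 and limma-voom (limma 3.58.1) were run on the same counts as alternatives, as were other normalisations, filters, covariates and sets of mice. Scripts were tested on simulated data. Genes named in full were, per family, the 3 with the smallest p for the slope, the 2 with the highest CPM, and any called gene. From each companion list, called genes and up to 4 with the smallest p could be named, and Slbp, Npat, Hinfp and Pcna, named for their roles after their values were seen where the rule did not reach them, are exceptions. The p-values set differences against the spread between separate mice and treat cage mates as independent. Mice were caged by sex and dose, so effects of cage and of dose cannot be told apart.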

Additional observations from a re-analysis of the deposited data

Results flagged for a closer look

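Within groups of 4 or 5 mice, 64 sets of values (each gene named in full and each family sum, by dose group) were searched for a single mouse whose gap to its nearest neighbour exceeded the critical share of the group's range (Dixon's test at the 95% level). Chance alone marks about 1 set in 20, and 4 were marked, all of them linker histone values. The 250 mg/kg mouse G49, the only female of its group and the mouse with the fewest counts, had 117 CPM of H1f2 against 73.5 to 77.3 CPM in the other mice (gap over range 0.914). The H1 sum in G49 was 289 CPM against 165 to 174 CPM (0.924). The 500 mg/kg mouse G87 had an H1 sum of 146 CPM, below the 195 to 202 CPM of the others (0.874). The 125 mg/kg mouse G29 had 58.9 CPM of H1f4, below the 75.2 to 80.7 CPM of the others (0.748). In the 250 mg/kg group the mouse G49 and female sex cannot be told apart, and no cause was tested.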

How the results depend on the processing

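With 4 or 5 mice per group and a 25.8% variation between mice, small differences could not be resolved, and with DESeq2 in place of edgeR more histone genes were called: 4 in the dose regression, 3 between 500 mg/kg and vehicle, 14 between 500 and 125 mg/kg, 11 for any difference among the groups and 2 for departure from a straight line. With only the mice of the 2 groups compared, 0 were called between 500 and 125 mg/kg, where fewer mice estimate the spread. Leaving out each mouse in turn gave 1 (without G4 or G87) to 9 (without G45, with 6 without the vehicle mouse G9) histone genes called between 500 and 125 mg/kg, 1 to 2 for any difference among the groups (1 in 10 of 18 fits) and 0 to 1 for departure from the line (1 without G4). The shares of all genes called in these leave-one-out fits are not given here. With all mice H4c12 was not called between 500 and 125 mg/kg at an unadjusted p of 0.000321 (edgeR). H3c11 was called at 0.000448 without G9, and H3c2 at 0.000846 without G45 (edgeR). The bar for a call was thus lower in those fits. The median slope was −0.84 without the vehicle mice and ran from −0.64 to −0.38 when single mice were left out. Without the 500 mg/kg mice the slopes of H1f3, H3c11 and H3c6 became positive at 0.0120, 0.0336 and 0.0253. Over all genes, the 5 called between 500 and 125 mg/kg became 572 with DESeq2, 49 with no filter, 17 with DESeq2 size factors and 13 with limma-voom, and the 46 of the dose regression became 242 with DESeq2, 29 with no filter and 0 with the label number as a block. The cause of these changes was not tested. Because dose varied within a label number only along with sex, the fit with that block cannot check the slopes. That block was not run between 500 and 125 mg/kg, so this comparison was not checked against the label number. The median difference between 500 and 125 mg/kg stayed negative and moved by less than the spread between mice under the 24 alternatives run for it. The family sums were recomputed under 1 alternative, CPM without TMM, and moved by less than their group SD. Without TMM every 125 mg/kg mean was lower and every other group mean higher. The rise from vehicle to 125 mg/kg was thus smaller for H3 and H4. The H4 means were 746 CPM at 125 mg/kg and 670 CPM in vehicle mice, against 784 and 660.5 CPM with TMM. The H3 means were 392 and 329 CPM, against 412 and 325 CPM. The H1 means were 212 and 227 CPM, against 223 and 224 CPM. The fits of 500 mg/kg against vehicle and of 500 against 125 mg/kg without both G4 and G9, and of the companion lists without G4 or G9, were chosen after seeing the data.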
